A study of Mus musculus with 11 samples.

Results

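The transcripts described here belong to 10 genes known as products of the mature adipocyte, Adipoq, Cfd, Lep, Retn, Plin1, Cidec, Car3, Scd1, Fasn and Acsl1, measured in cells that had been sorted from fat with the adipocytes taken out. The genes were chosen by symbol from the 23507 gene rows of the count table, and each of the 10 symbols matched 1 row. The choice was made with levels by plate and cell class in view, so these levels are given as a description without a test. Only the contrast of males with females, which the choice did not use, was tested.

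Single cells of the stromal vascular fraction of mouse perigonadal white adipose tissue (pgWAT) were sorted into 384-well plates and sequenced by Smart-seq2, a full-length method that counts reads and not molecules. The mice had the C57BL6/J background, carried the Tg(Pdgfrb-eGFP) reporter and ate chow, and were adults. The reporter marks cells that transcribe Pdgfrb, and the sorts combined it with CD31 and DPP4 after a CD45-negative gate. The table held 3261 cells on 11 plates, of which 4 plates came from 3 male mouse ids (1177 cells) and 7 plates from 4 female mouse ids (2084 cells). The female id 6/7 covers animals that were not separated in the labels.

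Adipocytes store triglyceride in a single large droplet and secrete hormones, and floating them off by centrifugation after collagenase digestion is the usual way to separate them from the stromal cells. Adiponectin (Adipoq), leptin (Lep), resistin (Retn) and adipsin (Cfd, complement factor D) are their secreted products. Perilipin 1 (Plin1) and Cidec coat the droplet and govern lipolysis and droplet fusion. Carbonic anhydrase 3 (Car3) is an abundant cytosolic protein of fat and muscle. Fasn builds palmitate, Scd1 desaturates fatty acids and Acsl1 links them to coenzyme A, and these enzymes are also used by other cells that make lipid.

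The genes lie on 8 chromosomes of the mm10 (GRCm38) mouse genome, with positions from the GENCODE vM21 annotation. Adipoq is at chr16:23146536-23158028, Cfd at chr10:79890853-79892655, Lep at chr6:29060220-29073877 and Cidec at chr6:113424634-113435760. Retn is at chr8:3655770-3660110 and Acsl1 at chr8:46471037-46536051. Plin1 is at chr7:79720218-79732903, Car3 at chr3:14863512-14872523, Scd1 at chr19:44394455-44407879 and Fasn at chr11:120805846-120824547. All 10 are protein-coding genes, and values count reads assigned to the whole gene.

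Promoter sequence in RefSeq's GRCm38.p6 table was matched for 8 of the 10 genes (10 promoters); Car3 and Scd1 were not matched. The 250 bases before each start were searched on both strands for TTGCNNAA, a form of the site bound by C/EBP factors, which drive adipocyte genes, and for CCAAT, the site of NF-Y. TTGCNNAA was found in promoters of 3 of these 8 genes, Lep, Cidec and Plin1, and in 9.56% of all 32851 promoters. CCAAT was found in promoters of another 3, Adipoq, Fasn and Acsl1, and in 33.8% of all promoters. The windows below show some of these matches, with the match in capitals and each read 5′ to 3′ along the gene.
Lep, chr6:29060155-29060184, plus strand: tggccggacagTTGCGCAAgtggcactggg
Cidec, chr6:113434944-113434973, minus strand: ggagggctctaTTGCTCAAgggcccatggg
Plin1, chr7:79732945-79732974, minus strand: ccacctctttaTTGCCTAAacatcccccat
Adipoq, chr16:23146506-23146535, plus strand: gctattggccttgactgggttggCCAATgg
Fasn, chr11:120824592-120824621, minus strand: cggcctcggtgtCCAATtggtttcgatgtg
A match is a description of these letters and not evidence of binding. Counted to the start of the RefSeq transcript, which for Cidec and Plin1 lies well inside the gene bounds given above, the match in Lep began 55 bases before, in Cidec 198, in Plin1 187, in Adipoq 7 and in Fasn 62. Plin1 held a further match to TTGCNNAA, and Adipoq and Fasn further matches to CCAAT.

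Cell classes were rebuilt by clustering with the 10 genes and 20 further adipocyte genes kept out of the variable genes. By marker genes, 2134 cells were adipose stem cell (ASC)-like (Pdgfra, Col1a1, Dcn, Lum), 552 endothelial (EC)-like (Pecam1, Cdh5, Kdr, Cldn5), 22 lymphatic endothelial (LEC)-like, 137 macrophage-like and 101 mural-like. The other 315 cells fell into 5 clusters left without a name, either because genes of an outside cell type led them or because mitochondrial reads took more than 3 times their usual share. The first of these reasons was added after the clusters were seen. Total reads per cell ranged from 149931 to 3548334, with a median of 629323. Every well also held ERCC spike-in RNA, added in the lysis buffer, and reads per ERCC read were compared only within a plate. Plate 843 went against its label: it was labelled as a PDGFRB-positive sort, yet it held 44 EC-like and 61 macrophage-like cells beside 98 ASC-like cells.

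EC-like cells held far more reads of the 10 genes than any other named class. Their summed level was 3178 counts per 1000000 gene reads (CPM), against 295.8 in mural-like, 190.1 in macrophage-like, 88.9 in ASC-like and 40.7 in LEC-like cells. Over mouse ids the summed level was 2663 ± 1135 CPM in EC-like cells (SD, n = 5) and 87.6 ± 13.6 in ASC-like cells (SD, n = 7), and the lowest EC-like id (1194 CPM) lay above the highest ASC-like id (110.2 CPM). Macrophage-like cells were present in numbers in 2 ids, at 154.2 and 254.2 CPM, and mural-like cells in 2, at 172.1 and 707.8 CPM. EC-like cells thus lay above these classes in each of the 5 ids, whereas macrophage-like and mural-like ids overlapped each other.

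**Figure D1:**
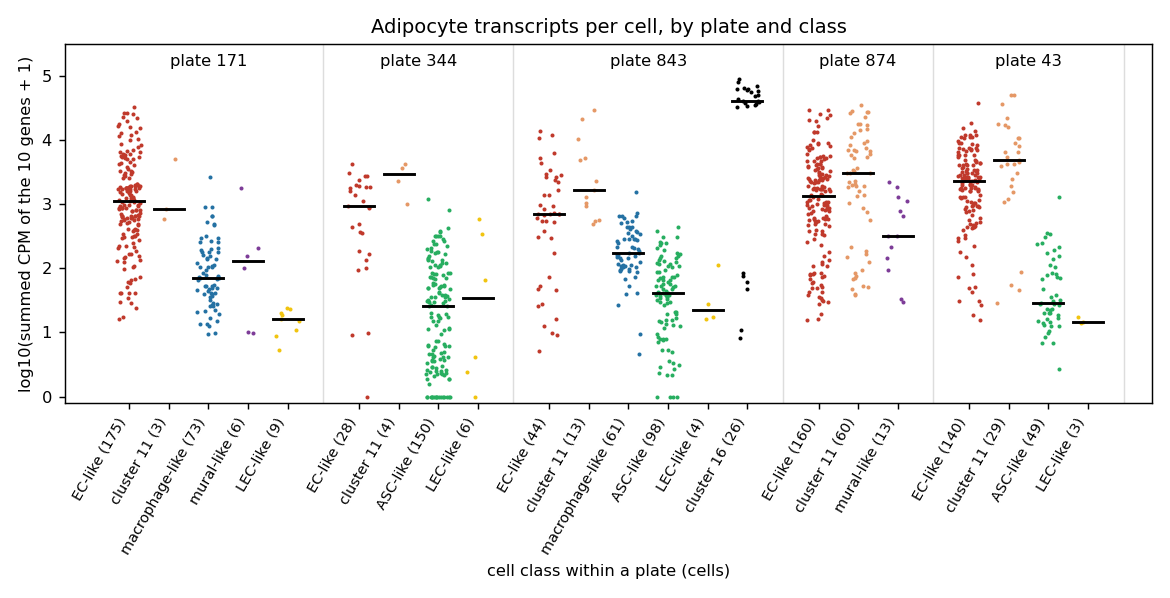
Summed CPM of the 10 genes in each cell (log10 of CPM plus 1, y axis) for each class of 3 or more cells on the 5 plates with at least 10 EC-like cells (x axis, cells in parentheses). Points are cells and bars are medians. EC-like cells spread from near 0 to above 10000 CPM, most LEC-like cells of the same plates stayed low, and 20 cells of cluster 16 on plate 843 sat above all others of that plate.

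Because all classes of a plate shared lysis buffer, amplification and sequencing, they were next set side by side within plates. On plate 43 the summed level was 3942 CPM in 140 EC-like cells and 91.3 CPM in 49 ASC-like cells. On plate 843 it was 2063 CPM in EC-like, 254.2 in macrophage-like and 65.9 in ASC-like cells. On plate 344 it was 1194 CPM in 28 EC-like and 84.0 in 150 ASC-like cells, and on plate 171 it was 2503 CPM in 175 EC-like and 155.9 in 73 macrophage-like cells. The ratio of EC-like to ASC-like cells was thus 43.2, 31.3 and 14.2 on the 3 plates that held at least 10 cells of each. Plates 172, 42 and 875 also held ASC-like cells but only 3, 1 and 1 EC-like cells, and were left out. On plate 43 these classes came from separate sorts, and on plate 843 they stood in separate rows of wells. Class cannot be told apart from sort on plate 43, or from position on plate 843.

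The ERCC scale gave the same order with smaller ratios. EC-like cells yielded fewer gene reads per ERCC read than ASC-like cells, 24.8 against 61.5 on plate 43, 32.6 against 177.4 on plate 843 and 122.8 against 487.5 on plate 344. Reads of the 10 genes per ERCC read were 0.0979 in EC-like and 0.00562 in ASC-like cells of plate 43, 0.0672 and 0.0117 on plate 843, and 0.147 and 0.0410 on plate 344. EC-like cells therefore exceeded ASC-like cells 17.4-fold, 5.74-fold and 3.58-fold on this scale. The limits given above for plates 43 and 843 apply to these ratios too. Against macrophage-like cells the difference was 7.05-fold on plate 171 and 2.98-fold on plate 843.

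LEC-like cells, also endothelial, were lower than EC-like cells in summed level on each of the 4 plates that held both. The 9 LEC-like cells of plate 171 ranged from 4.39 to 23.0 CPM, and their summed reads per ERCC read were 0.00184 against 0.158 in EC-like cells of that plate. The 4 LEC-like cells of plate 843 ranged from 15.0 to 112.2 CPM and the 3 of plate 43 from 12.9 to 16.3 CPM. The 6 of plate 344 reached higher, from 0 to 579.6 CPM with a median of 33.9, and summed to 0.0165 reads per ERCC read against 0.147 in EC-like cells. Fewer than 10 LEC-like cells stood on any plate.

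Mural-like cells split by plate. On plate 172, a PDGFRB-positive sort, 76 mural-like cells had 130.3 CPM with a median of 7.87 per cell, and their EC markers summed to 381 CPM. On plate 874, a CD31-positive sort, 13 mural-like cells had 707.8 CPM with a median of 324, and their EC markers summed to 4979 CPM, more than their 5 pericyte markers (3506 CPM). The part of EC transcripts in the mural-like value of plate 874 was not tested.

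The secreted products were next examined gene by gene. Adipoq was at 118.4 CPM in EC-like cells of plate 171, 46.1 on plate 344, 319.8 on plate 874, 104.1 on plate 843 and 189.8 on plate 43. In ASC-like cells it was at most 3.15 CPM over 9 plates, with a median of 0.0157. No Adipoq read was seen in the ASC-like cells of plates 172, 709 and 129, where 3 reads would amount to 0.0226, 0.00982 and 0.0199 CPM. Each of the EC-like plates named above thus lay above every ASC-like plate. In macrophage-like cells Adipoq was at 6.18 and 11.2 CPM on plates 171 and 843.

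Cfd was the highest of the 10 genes in EC-like cells once length was taken into account, at 806 reads per kilobase per 1000000 reads (RPKM), followed by Car3 at 399 and Adipoq at 159 RPKM. By plate its level in EC-like cells was 454.0 CPM on plate 171, 148.7 on 344, 872.2 on 874, 719.5 on 843 and 1053 on 43. In ASC-like cells it ranged from 0.0162 to 23.0 CPM over 9 plates. Plate 344 was the lowest of the EC-like plates for Cfd as for Adipoq.

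Lep, by contrast, was low throughout. EC-like cells had 12.7 CPM on plate 171, 44.5 on plate 344, 16.8 on plate 874, 7.86 on plate 843 and 14.2 on plate 43. Plate 344, lowest for the other secreted products, was highest for Lep, and these reads came from 10.7% of its 28 EC-like cells. Retn was at 66.5, 9.31, 161.0, 62.0 and 122.2 CPM on the same 5 plates, so that plate 344 was again the lowest. In ASC-like cells Lep reached at most 0.0236 CPM and Retn 4.47 CPM.

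The lipid droplet proteins behaved differently from each other. Cidec lay in a narrow range over the EC-like plates, at 133.5 CPM on plate 171, 78.4 on 344, 224.7 on 874, 126.1 on 843 and 203.5 on 43, and was at most 1.53 CPM in ASC-like cells. Plin1 ranged over 2 orders of magnitude, with 136.4 CPM on plate 171, 1.04 on 344, 49.8 on 874, 22.0 on 843 and 42.4 on 43. Mural-like cells of plate 172 held Plin1 at 35.1 CPM while their Adipoq was at 0.138 CPM. Plin1 was the member with the largest share of reads in these mural-like cells, at 26.9% of the reads of the 10 genes. In EC-like cells of plates 171, 874, 843 and 43 its share was 1.07% to 5.45%. It was seen in 50% of these 76 mural-like cells, and 3 of them gave 57.6% of its reads.

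Car3 gave the most reads of the 10 genes over all EC-like cells, although Cfd gave more on plate 843, and was at 810.3 CPM on plate 171, 502.5 on 344, 1355 on 874, 685.5 on 843 and 1492 on 43. In ASC-like cells it ranged from 0.152 CPM on plate 129 to 58.2 CPM on plate 875. The high ASC-like values rested on few cells: the 10 cells with most Car3 reads gave 77.1% of all its reads in 2134 ASC-like cells. These 10 cells stood on plates 131, 172 and 875, held 990 to 4634 Car3 reads each and had no Adipoq read. Cfd reads in these 10 cells numbered at most 1 each.

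Reads of Scd1 and Fasn were spread over many ASC-like cells. Scd1 was at 18.9 to 42.9 CPM and Fasn at 12.7 to 51.5 CPM over 9 ASC-like plates, and the 10 highest cells held 10.8% and 11.9% of their reads, against 23.6% for Acsl1. EC-like cells had 252 to 617 CPM of Scd1 and 47.8 to 150.8 CPM of Fasn, so Scd1 did not overlap between the classes whereas Fasn did, plate 843 EC-like cells lying below plate 344 ASC-like cells. Acsl1 was at 2.28 to 12.4 CPM in ASC-like and 27.97 to 75.8 CPM in EC-like cells. Together the 3 enzymes made up 72.4% of the reads of the 10 genes in ASC-like cells and 21.7% in EC-like cells.

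**Figure D2:**
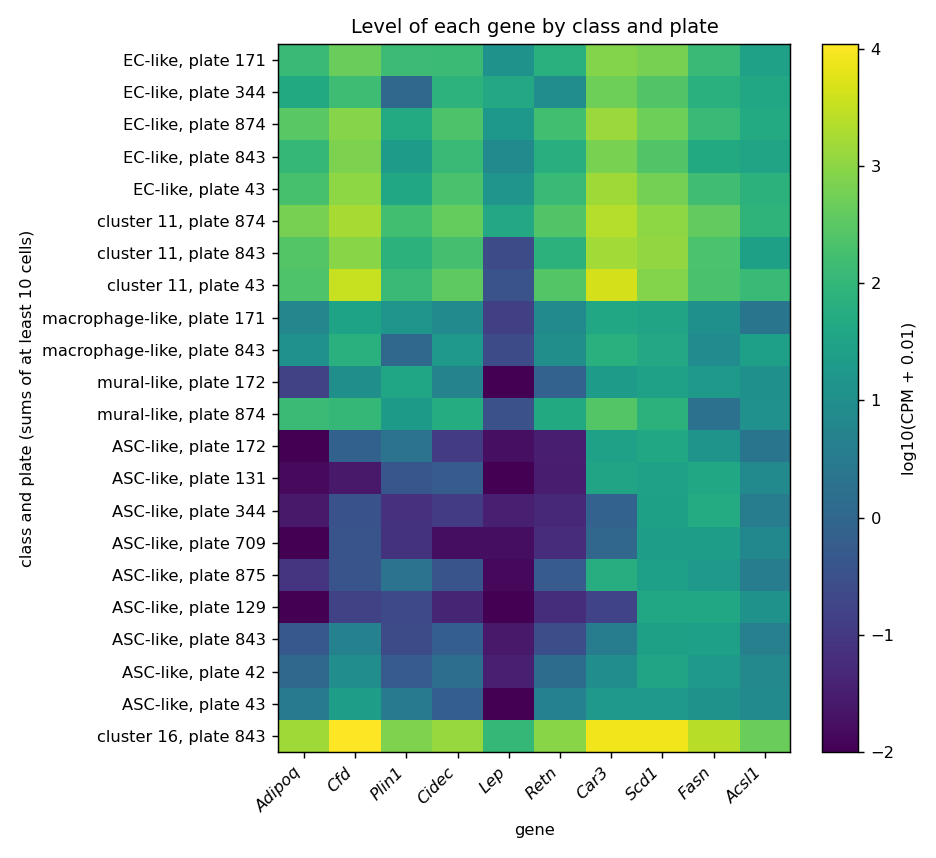
Level of each gene (columns) in each class and plate with at least 10 cells (rows), as log10 of CPM plus 0.01. Rows of EC-like cells and clusters 11 and 16 are high for nearly all genes, whereas ASC-like rows are dark for Adipoq, Cidec, Lep and Retn and brighter for Scd1 and Fasn; Lep is below 50 CPM in every row but that of cluster 16.

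The share of cells with a read followed the levels. After each cell was thinned to 100000 gene reads, Adipoq was seen in 49.1% of EC-like cells (exact 95% interval 44.8 to 53.4), 20.4% of macrophage-like cells (14.03 to 28.2), 13.9% of mural-like cells (7.79 to 22.2) and 0.843% of ASC-like cells (0.501 to 1.33). Intervals cover counting error only. They treat the cells of a class as independent and leave out the spread between plates and mouse ids. By plate the thinned share of ASC-like cells with Adipoq ran from 0% to 8.16%. Reads amplified by PCR without molecular identifiers are also not independent molecules. Counting all reads instead gave 69.2%, 54.7%, 18.8% and 3.14% in these 4 classes, whose cells had medians of 529568, 664332, 624436 and 671048 reads. Macrophage-like cells thus stood far closer to EC-like cells in the share of cells with a read than in level: for Car3 the unthinned shares were 94.9% and 98.4% at 49.8 and 1144 CPM.

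Several of the genes were usually seen in the same EC-like cell. In thinned data an EC-like cell had a median of 5 of the 10 genes, 305 of 552 cells (55.3%, exact 95% interval 51.0 to 59.5) had 5 or more and 4 had all 10. The share with 5 or more was 24.8% in macrophage-like cells (17.8 to 32.9), 12.9% in mural-like cells (7.04 to 21.0) and 0.515% in ASC-like cells (0.258 to 0.920). Of EC-like cells with an Adipoq read 58.7% had Cidec, against 39.1% of those without, and 64.6% had Retn, against 34.9%. For all 90 ordered pairs of genes the share of EC-like cells with the second gene was higher where the first was present, by a median of 13.6 percentage points, a count that pools plates of different level. In ASC-like cells this held for 62 of the 81 pairs that could be computed, by a median of 3.23 percentage points, and in macrophage-like cells for 62 of 81, by a median of 8.24.

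Among EC-like cells of 1 plate the summed level varied widely. Over all 552 EC-like cells its median was 1401 CPM, with the tenth and ninetieth percentiles at 72.6 and 7830 and the highest cell at 37874 CPM, and 42 cells exceeded 10000 CPM. Both EC-like clusters carried the transcripts, with 3390 CPM in the 372 cells whose leading genes included Aplnr, Car4 and Cldn5 and 2597 CPM in the 180 cells whose leading genes included Adamts17, Apln and Prnd, of which 172 came from plate 171. Within each of 5 plates the summed level was set against other values of each cell. Spearman's rho across cells of a plate was -0.249 to 0.128 for total reads, -0.140 to 0.328 for mitochondrial share, -0.291 to 0.154 for haemoglobin reads and -0.315 to 0.0316 for the EC markers. For the macrophage markers it was -0.0913 to 0.491, the highest value being that of the 28 cells of plate 344. These are descriptions over 28 to 175 cells that share a plate and a denominator.

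The make-up of the adipocyte reads was then compared between classes of a plate. On plate 171 EC-like cells had 32.4% Car3, 24.7% Scd1, 18.1% Cfd, 4.73% Adipoq and 5.33% Cidec among the reads of the 10 genes, and macrophage-like cells had 26.3%, 22.1%, 20.2%, 3.96% and 4.92%. On plate 843 EC-like cells had 33.2% Car3, 12.3% Scd1, 34.9% Cfd, 5.05% Adipoq and 6.11% Cidec, and macrophage-like cells had 26.5%, 17.4%, 27.2%, 4.40% and 7.13%. Cfd was thus the larger part on plate 843 and the smaller on plate 171 in both classes. Some of the other genes differed more. Acsl1 took 1.65% in EC-like and 9.91% in macrophage-like cells of plate 843, whereas Fasn took 2.32% and 3.31%. Plin1 took 5.45% and 9.18% on plate 171, where 3 cells gave 90.6% of its macrophage-like reads. ASC-like cells of plate 843 had 40.1% Scd1 and 38.7% Fasn.

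When Scd1, Fasn and Acsl1 were left out, ASC-like cells of plate 843 came to resemble the other classes of that plate. Of the reads of the other 7 genes, Cfd took 47.1% in ASC-like, 41.7% in EC-like and 39.2% in macrophage-like cells, Car3 36.2%, 39.7% and 38.1%, Cidec 6.57%, 7.30% and 10.3%, and Adipoq 4.65%, 6.03% and 6.33%. On plate 43 Cfd took 43.8% in ASC-like and 33.8% in EC-like cells and Car3 34.9% and 47.9%. On plates 129, 709 and 42, with at most 1 EC-like cell each, Cfd took 23.9%, 24.6% and 40.4% of the reads of the 7 genes in ASC-like cells and Car3 26.1%, 66.3% and 40.02%, from 88, 439 and 3836 reads. On plates 131, 172 and 875, which held the 10 ASC-like cells with most Car3, Car3 took 97.0%, 90.8% and 94.6% of these reads in ASC-like cells and Cfd 0.0473%, 2.33% and 0.573%.

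**Figure D3:**
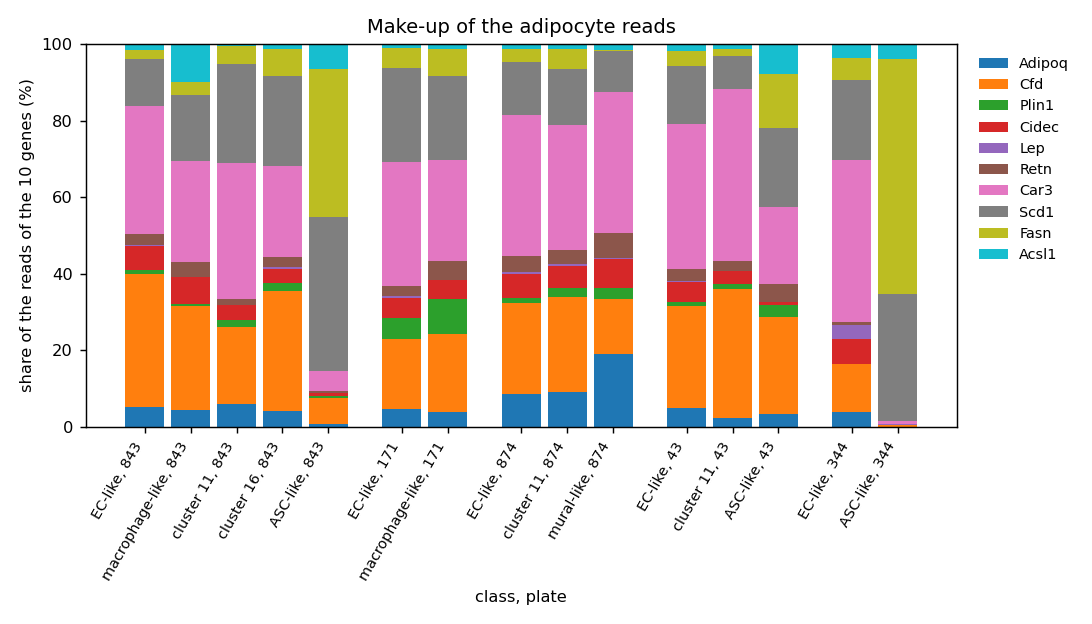
Share of each gene (colours) in the reads of the 10 genes (y axis, percent) for classes of the 5 plates with at least 10 EC-like cells (x axis). EC-like and macrophage-like bars of a plate both have Car3 and Cfd as large parts, but differ in smaller parts such as Acsl1 on plate 843. Scd1 and Fasn fill most of the ASC-like bars of plates 843 and 344.

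The share of ASC-like cells with a Cfd read differed widely between plates, and is given beside the reads of the 7 genes in the other cells of the plate. Cfd was seen in 91.8% of ASC-like cells on plate 43 and 59.2% on plate 843, with medians of 2 and 1 reads per cell. On plates 131, 129 and 709 it was seen in 1.102%, 0.580% and 1.06% of ASC-like cells. Plates 43 and 843 held 233205 and 304420 reads of the 7 genes in 176 and 155 cells other than ASC-like. Plates 131, 129 and 709 held none, but had only 1, 1 and 0 such cells in the data. Plate 344, with 14843 such reads, showed Cfd in 11.3% of ASC-like cells, and plate 42, with 1730, in 22.2%. Plate 172, with 4920, showed it in 6.08% and plate 875, with 925, in 10.05%, so the shares did not follow these reads in order. After thinning, the shares on plates 43, 843, 42 and 344 were 42.9%, 27.6%, 9.40% and 1.33%. ASC-like cells of plates 42 and 43 came from the same mouse id and the same kind of sort, and differed in this share. The source of these reads was not tested.

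On plate 843 the level of adipocyte reads followed blocks of wells. Rows A to D held all 44 EC-like cells, rows E to H held 77 of the 98 ASC-like cells, and rows I to L held 56 of the 61 macrophage-like cells. The 56 macrophage-like cells of rows I to L had 38.1 to 1539 CPM with a median of 202.2, whereas the 5 in other rows had at most 90.4 CPM. The 4 ASC-like cells of rows I to L had 114.3 to 382.3 CPM with a median of 240.5, against a median of 40.1 in the 77 of rows E to H. Rows I to L also held 18 of the 20 cells described next.

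Of the 29 cells in unnamed cluster 16, 26 stood on plate 843, and the summed level split the 29 into separate ranges. In 9 cells it was 4.44 to 83.1 CPM, and in 20, all on plate 843, it was 33131 to 89572 CPM, with no cell between. In those 20 cells the 10 genes made up 3.31% to 8.96% of all gene reads. Cfd was at 16902 CPM, Car3 at 12835, Scd1 at 12662, Fasn at 3801, Adipoq at 2276, Cidec at 1996, Retn at 1430, Plin1 at 1135, Acsl1 at 757.3 and Lep at 165.4 CPM. Adipoq, Cfd, Cidec, Retn, Car3, Scd1 and Fasn were seen in each of the 20, and Lep in 6. After the rows CT010467.1, AY036118 and mt-Rnr2, Cfd, Car3 and Scd1 were the most abundant genes of these cells.

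The 20 cells were low in most markers of the named classes. The pericyte marker Cspg4 was at 58.5 CPM and seen in 90% of them, against 2.53 CPM in EC-like cells of the plate, while Abcc9, Rgs5 and Higd1b had no read. Their ASC markers summed to 63.6 CPM (16013 in ASC-like cells of the plate), their EC markers to 27.2 CPM (4432 in EC-like cells) and their macrophage markers to 13.7 CPM (2592 in macrophage-like cells), and no mesothelial marker read was seen in them. They had a median of 2230 detected genes, against 3400 in EC-like cells of the plate, and 23.8 gene reads per ERCC read, against 32.6. Their median depth was 311315 reads, against 529246.5 in these EC-like cells. Their mitochondrial share had a median of 4.73% (0.653% to 22.3%), against 1.99% (0.838% to 20.6%). Reads of the 10 genes per ERCC read came to 1.28, against 0.0672 in EC-like and 0.0225 in macrophage-like cells. The 9 cells of the low range differed from them, with 2530 CPM of mesothelial and 13205 CPM of ASC markers. The split was made on the level of the genes themselves, so no test was applied, and the 20 cells are given no cell type.

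**Figure D4:**
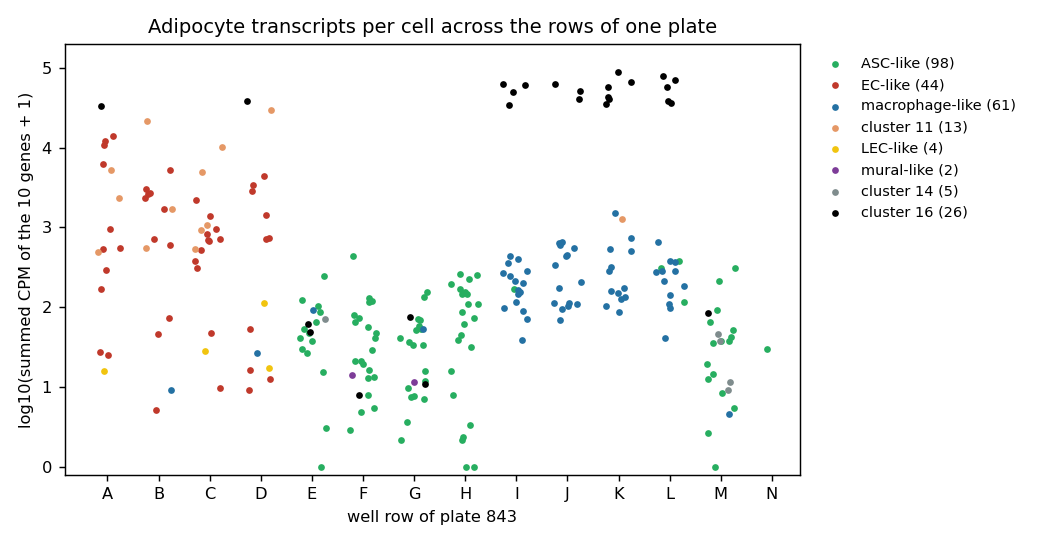
Summed CPM of the 10 genes in each cell of plate 843 (log10 of CPM plus 1, y axis) by row of wells (x axis), coloured by class with cells in parentheses. EC-like cells fill rows A to D, ASC-like cells rows E to H and M, and macrophage-like cells rows I to L, where 18 of the 20 highest cells also stand.

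A second unnamed cluster, 11, was also rich in the transcripts. Its 110 cells carried EC markers (2459 CPM against 6049 in EC-like cells) and were led by haemoglobin genes, and their summed level of the 10 genes was 6972 CPM, with 25 cells above 10000 CPM. By plate it was 4510 CPM on plate 843, 7030 on plate 874 and 9920 on plate 43. Per ERCC read it was 0.0693, 0.0474 and 0.0959, close to the 0.0672, 0.0572 and 0.0979 of EC-like cells on those plates, since cluster 11 cells gave fewer gene reads per ERCC read (6.74 to 15.4, against 15.5 to 32.6). The erythroid genes summed to 0.225 CPM in the cluster 11 cells of plate 843 and to 82842 CPM in those of plate 43, and their part in the level was not tested.

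The other adipocyte genes gave a mixed picture. Of 20 genes on a list of further adipocyte genes, the 5 highest over EC-like cells were Aqp7, the glycerol channel, at 1031 CPM, Lipe, hormone-sensitive lipase, at 236.6, Thrsp, a lipogenic regulator, at 178.3, the citrate enzyme Acly at 145.4 and Pck1, which feeds glycerol synthesis, at 95.3 CPM. In ASC-like cells they were at 0.647, 49.4, 0.248, 108.0 and 0.229 CPM. In the 20 cells of cluster 16 Thrsp was at 2097, Lipe at 1216, Acly at 862.4 and Pck1 at 635.2 CPM, all above EC-like cells, whereas Aqp7 was at 33.2 CPM, far below them. Cidea, Mogat1 and Ucp1 had no read in those 20 cells.

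Genes of lipid handling that both adipocytes and capillary endothelium use did not share 1 order. The fatty acid carrier Fabp4 was at 11486 CPM in EC-like cells and 5431 in the 20 cells, the fatty acid transporter Cd36 at 9686 and 1091, and monoglyceride lipase (Mgll) at 1462 and 628.7 CPM. Angptl4, an inhibitor of lipoprotein lipase, was at 961.8 and 155.9 CPM, and the lipoprotein lipase gene Lpl at 451.8 and 1767 CPM. In ASC-like cells Lpl reached 1216 CPM and Fabp4 42.5 CPM. Pparg, the master regulator of adipogenesis, was at 184.5 CPM in EC-like, 306.9 in the 20 cells and 17.6 CPM in ASC-like cells.

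The genes whose pattern was most like the summed level of the 10 were sought over 18 plate and class sums among 14145 genes. The highest Pearson's r on log2(CPM + 1) belonged to Bambi-ps1 (0.967), Pck1 (0.964), Itga6 (0.963), Arap3 (0.961), Jag2 (0.959), Gm29397 (0.959), Cdh23 (0.958), Gm12002 (0.958), Thrsp (0.953) and Gimap1 (0.953). Pck1 and Thrsp are on the adipocyte list, whereas Itga6, an integrin, and Jag2, a Notch ligand, are also transcribed by endothelium. The sums share plates and mice, and EC-like sums lie at one end of the pattern. Of the 10 genes themselves, Cidec (0.970) followed the sum most closely and Fasn (0.525) least.

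The sexes were then compared in counts summed per mouse id and class, with edgeR's quasi-likelihood test. In ASC-like cells (3 male and 4 female ids) 4 of the 10 genes had more than 600 reads in at least 2 sums and could be tested, and none was called at an adjusted p under 0.05 with a fold change over 2.6; over all 11740 genes tested 285 (2.43%) were called. In summed counts, fewer cells with a transcript and less of it per cell cannot be told apart. Of the 285 genes 206 were higher in males and 79 in females, and with library totals alone 88 and 190 were. Without mouse id 2, 5, 6/7 or 8 the count over all genes was 160, 145, 119 or 161. Unadjusted p was under 0.05 for 2 of the 4 genes, Fasn and Scd1, and for 2317 genes in all, and neither DESeq2 nor the likelihood ratio test called any of the 4. Fasn was at 22.3, 32.8 and 85.5 scaled CPM (after TMM normalisation) in male ids 1, 4 and 8 and at 16.9, 29.5, 25.8 and 13.5 in female ids 2, 3, 5 and 6/7. The ranges overlapped, and the log2 difference of male minus female was 1.13 (SE 0.46, adjusted p = 0.22, edgeR). Scd1 was at 71.3, 24.0 and 46.3 in males and at 19.9, 31.5, 26.8 and 24.0 in females, a log2 difference of 0.89 (SE 0.35, adjusted p = 0.21, edgeR). Car3 spread widely in both sexes, from 1.31 to 47.5 in males and, over more than 2 orders of magnitude, from 0.112 to 22.5 in females. Its log2 difference was 1.58 (SE 1.26, adjusted p = 0.52, edgeR). Acsl1 differed by -0.14 (SE 0.40, adjusted p = 0.87, edgeR). The other 6 genes had too few reads in ASC-like cells to be tested.

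Of the further adipocyte genes 8 of 20 were tested in ASC-like cells and 1 was higher in males. Mrap, the accessory protein of the melanocortin 2 receptor, was at 8.23, 7.68 and 7.30 scaled CPM in male ids and at 0.927, 1.06, 0.393 and 0.850 in female ids. The groups did not overlap, and the log2 difference was 3.25 (SE 0.45, adjusted p = 0.0059, edgeR). When the cells of unnamed clusters were counted with the class of their markers, the 20 cells of plate 843 entered female id 5 and the Mrap difference was -0.42 (adjusted p = 0.85, edgeR). Of 10 genes of shared lipid handling, all tested, none was called; Pparg (log2 difference -1.18, SE 0.29, adjusted p = 0.069, edgeR) and Lpl (-1.04, SE 0.34, adjusted p = 0.15, edgeR) had the values nearest to the threshold among those below 0. The median log2 difference over all genes was 0.04 with TMM scaling and -0.60 with library totals alone.

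In EC-like cells (2 male and 3 female ids) all 10 genes were tested and none was called, and only 1 of 8122 genes (0.0123%), Xist at a log2 difference of -8.23 (adjusted p = 0.029, edgeR), was; 638 genes had an unadjusted p under 0.05, Lep being the only one of the 10. DESeq2 called 115 genes and the likelihood ratio test 61, none of them among the 10. Lep was at 17.4 and 60.4 scaled CPM in male ids 1 and 8 and at 12.6, 8.22 and 9.40 in female ids 2, 5 and 6/7. The males lay above the females, with a log2 difference of 1.94 (SE 0.68, adjusted p = 0.63, edgeR). Cfd was at 626.6 and 201.5 in males and at 660.0, 752.0 and 698.6 in females. Here the males lay below the females, with a log2 difference of -0.76 (SE 0.54, adjusted p = 0.74, edgeR). Plin1 was at 187.4 and 1.41 in males and 37.5, 23.0 and 28.1 in females, so the males lay on both sides of the females. For the others the log2 difference ran from -0.77 for Retn to 0.77 for Scd1, at adjusted p from 0.71 to 1, with Car3 at -0.02 (SE 0.44) and Cidec at -0.01 (SE 0.45). Male id 8 held 28 EC-like cells, few of which had a Lep read. With so few ids the sexes can lie apart by chance. The share of all 8122 genes for which they lay apart is not given here, so the order of the sexes for Lep and Cfd is a description.

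The comparison in EC-like cells rested on male id 1. Without it, and with the lone male id 8 assumed to vary like the females, 654 of 7317 genes were called, 4 of the 10 among them: Plin1 at a log2 difference of -4.40 (adjusted p = 0.035), Retn at -2.83 (adjusted p = 0.041), Cfd at -1.81 (adjusted p = 0.039) and Lep at 2.57 (adjusted p = 0.038). Without any other id none of the 10 was called. On plate 171, of male id 1, 172 of the 175 EC-like cells were in the cluster whose leading genes included Adamts17, Apln and Prnd. On plates 344, 843, 43 and 874, 27, 42, 140 and 156 EC-like cells were in the other EC-like cluster. Plate 171 also differed from those plates in its sort label. In the values of male id 1, sex therefore cannot be told apart from cluster or sort. Macrophage-like and mural-like cells were not tested, since fewer than 2 ids of a sex held 10 such cells.

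**Figure D5:**
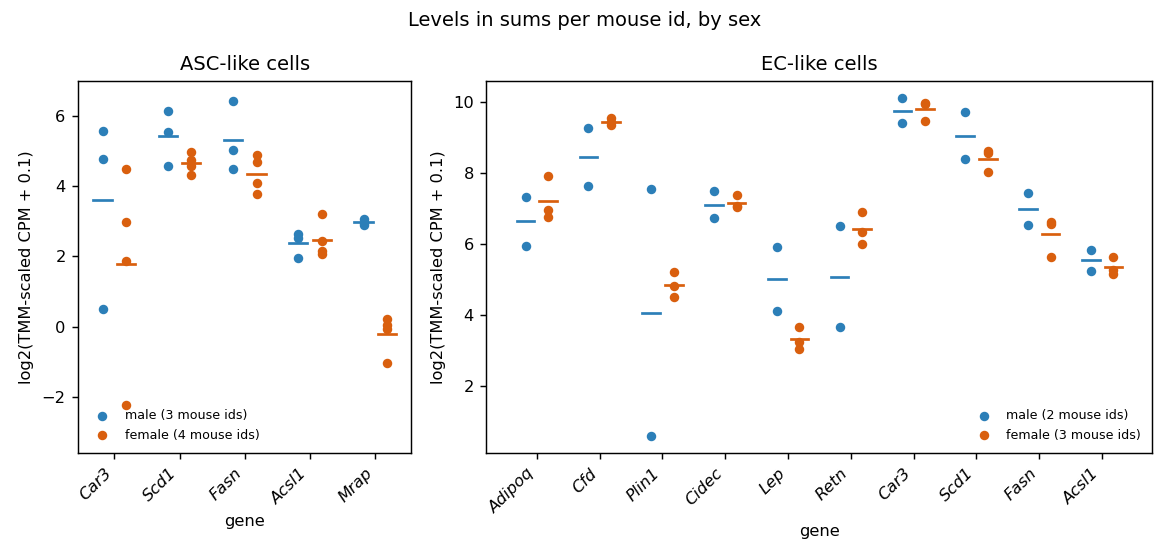
Scaled CPM of the tested genes and, in ASC-like cells, Mrap, in sums per mouse id (log2 of CPM plus 0.1, y axis; points are mouse ids, bars their means), for ASC-like cells (left) and EC-like cells (right), males in blue and females in orange. The sexes overlap for most genes. They do not overlap for Mrap in ASC-like cells or for Lep and Cfd in EC-like cells, though neither Lep nor Cfd was called. Plin1 spans both extremes in the EC-like cells of the 2 males.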

How the data were processed

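The authors sequenced single cells by Smart-seq2, aligned reads with STAR to mm10, quantified them with Salmon and deposited 1 table of whole-number counts per gene and cell; tool versions are not given in the sources used here. Per the study's methods, cells were kept by read, gene, mitochondrial and ERCC limits, and the authors took out cells with signs of RNA from a further class before deposit. No doublet caller was run here.

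CPM was computed over gene reads without the 72 ERCC rows. Cells were clustered with Seurat 5.3.0 (scale 500000, 3000 variable genes less 25 adipocyte genes, 14 components, resolution 1.1; 19 clusters), and named from fixed markers seen in at least 25% of cells. Clusters stayed unnamed where 2 of the 10 leading genes came from another cell type, or by mitochondrial share. Shares of cells were also computed after thinning to 100000 reads, with exact intervals. No cell had fewer. No column lacked a sample (0).

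Counts were summed per mouse id with 10 or more cells and compared by edgeR 4.0.16 (TMM, quasi-likelihood, Benjamini-Hochberg over all genes); p-values measure the spread between mouse ids. On simulated data with 200 genes changed 8-fold, 96% were recovered in the ASC-like design (11160 genes) and 55% in the EC-like design (7018 genes). Alternatives used DESeq2 1.42.0, other scaling, filters and classes. Named genes were the 10, list genes called or among the 5 highest, and the 10 most alike. The members and lists were chosen with earlier results of these data known.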

Additional observations from a re-analysis of the deposited data

Results flagged for a closer look

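Retn in ASC-like cells stood apart in 1 of the 4 female mouse ids: id 6/7 had 1.80 CPM, against a median of 0.278 CPM in the other 3 ids, and its gap to the nearest id was 0.871 of the whole range. This was 1 of 11 such checks, and chance flags about 1 in 20. The levels checked were in view when the genes were chosen, so the gap is a description and not a test. On plate 42, which belongs to this id, 3 of the 234 ASC-like cells gave 56.8% of the Retn reads. On plate 43, also of this id, Retn was at 4.47 CPM and was seen in 40.8% of the 49 ASC-like cells. Other cells outside the comparisons of the sexes held more of the transcripts than any named class. The 20 cells of cluster 16 on plate 843 had a median of 50371 CPM, and the 110 cells of cluster 11 had a summed level of 6972 CPM, against 3178 CPM in EC-like cells. No explanation of these values was tested.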

How the results depend on the processing

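The summed level of EC-like cells was 4506 CPM when adipocyte genes helped to form the clusters, 1401 as the median over cells and 5862 without the reads of CT010467.1 and AY036118. In macrophage-like cells the level was 288.6 CPM with classes from the markers of each cell, 112.9 as the median and 452.0 without both rows, and in mural-like cells 746.3 without them. In ASC-like cells it was 303.3 CPM with classes from each cell, 306.2 with unnamed clusters counted in, 17.5 as the median and 145.2 without both rows. With classes from each cell, 24 of the 26 cluster 16 cells of plate 843 counted as ASC-like. With unnamed clusters counted in, the 20 cells of that plate did so too. EC-like cells remained the highest named class under each setting. The share of cells with 5 or more genes was 25.9% and 84.96% in EC-like cells at 10 reads and without thinning, 0% and 83.2% in macrophage-like cells, and 4.50% without thinning in ASC-like cells.

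Counting unnamed clusters in and leaving out both rows were chosen after seeing the data.

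Genes called between the sexes in ASC-like cells numbered 605 by the likelihood ratio test, 640 by DESeq2 and 119 to 332 with 1 mouse id left out, without any of the 10 genes. In EC-like cells they numbered 3 with library totals, 61 by the likelihood ratio test, 115 by DESeq2, 0 at 10 reads, with adipocyte genes among the variable genes or with unnamed clusters counted in, and 0 to 654 with 1 id left out, among which 0 to 4 of the 10.

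In ASC-like cells Car3, Fasn, Scd1 and Mrap reversed to log2 differences of -3.49, -0.93, -2.66 and -0.39 with classes from each cell and to -3.83, -1.09, -2.80 and -0.42 with unnamed clusters counted in. Both settings counted cluster 16 cells of plate 843, of female id 5, as ASC-like. Acsl1 ran from -0.28 to 0.17 with 1 id left out. In EC-like cells library totals gave Acsl1 -0.62, Fasn -0.16, Scd1 -0.071 and Mrap -0.012, and adipocyte genes among the variable genes gave Acsl1 -1.16, Fasn -1.06, Mrap -0.62, Plin1 -0.39 and Scd1 -0.95. RLE scaling gave Car3 0.036 and Cidec 0.041, and DESeq2 gave 0.036 and 0.042. Acsl1 was at -0.026 with classes from each cell and -0.044 with unnamed clusters counted in. With 1 id left out the ranges were -0.12 to 0.46 for Acsl1, -1.37 to 0.033 for Adipoq, -0.43 to 0.30 for Car3, -0.47 to 0.33 for Cidec, -1.24 to 1.53 for Mrap, -4.40 to 2.66 for Plin1, -2.83 to 0.034 for Retn and -0.035 to 1.28 for Scd1. The cause of these changes was not tested. No cluster was led by 3 or more adipocyte genes, so counting such clusters with a class gave no value. No paired analysis was possible because the labels give the sexes no shared replicate numbers.

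Reads are not molecules, each plate holds 1 mouse id, and 2 male ids give EC-like cells. On plate 43 the 49 ASC-like cells and the 140 EC-like cells came from separate sorts, so class and sort cannot be told apart there. On plate 843 all 44 EC-like cells stood in rows A to D and no ASC-like cell did. Class and block of wells therefore cannot be told apart between these classes on plate 843. LEC-like cells number 22.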
